A study of Mus musculus with 12 samples.

Results

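Eicosanoids are signalling lipids made from arachidonic acid, and the 10 genes described here encode enzymes and receptors of their prostaglandin and leukotriene branches: Ptgs1, Ptgs2, Ptges, Ptgis, Hpgd, Alox5, Alox5ap, Alox15, Ltb4r1 and Ptger4. They were chosen by gene symbol and not by a cut on their values, but with earlier results of these data known. They were 10 of the 53801 genes in the count table. All 10 were listed in the colon table of 32689 genes and in the blood table of 25514 genes. The libraries were made from total RNA of the colon and whole blood of male C57BL/6 wild-type mice aged 8 weeks, in a study of dextran sulfate sodium (DSS) colitis as a model of ulcerative colitis (UC). The libraries labelled UC came from mice 1, 2 and 4, which per the labels drank 1.5% DSS for 7 days and then regular water. The libraries labelled control came from mice 7, 8 and 9, which per the labels drank the same water without DSS. Every mouse was killed on day 8. Colon and blood came from the same 6 mice, which the study selected by disease activity score, so that they are not a random draw of treated animals. DSS injures the colon epithelium over days, which makes it a model of acute rather than chronic colitis. Colon and blood libraries were depleted of ribosomal RNA with different kits, and the blood kit removed globin RNA as well.

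Cells release arachidonic acid from membrane phospholipids with phospholipases, and 2 groups of enzymes then compete for it. Cyclooxygenases turn it into a prostaglandin precursor that dedicated synthases convert to prostaglandin E2, prostacyclin or thromboxane, while lipoxygenases turn it into leukotrienes and related fatty acids. In the gut, prostaglandin E2 is known for its part in epithelial repair and blood flow, and leukotriene B4 is known as an attractant of neutrophils.

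A colon library held between 69181049 and 103662306 counts and a blood library between 80867247 and 142536804. Of the tissue the labels speak in 2 fields, and these name opposite tissues for each sample. Under the field used here, all 5 red cell genes found were higher in every blood library than in every colon library, and all 7 gut genes were higher in every colon library. The disease labels did not match 2 inflammation genes. S100a8, which encodes a neutrophil calcium-binding protein, stood at 5370, 33.1 and 22.3 normalized counts in the colon of mice 1, 2 and 4, which are labelled UC, and at 1888, 75.6 and 13337 in the colon of mice 7, 8 and 9, which are labelled control. In blood S100a8 was also highest in mice 1, 7 and 9, and the iron-binding protein gene Lcn2 had its 3 highest libraries in the same mice in both tissues. The authors' normalized tables list the mice in the order 1, 7, 9, 2, 4 and 8, without disease names, and the labels put mice 1, 2 and 4 together. Lcn2 in blood was at 9234, 169 and 170 normalized counts in mice 1, 2 and 4. Mice 7, 8 and 9 held 774, 182 and 1886. The study listed Lcn2 among the genes most increased in the blood of its UC mice. Whether labels were exchanged between mice was not tested, and the labels were used as given. For this reason the text speaks of libraries labelled UC or control, and each fold change and share of called genes between labels holds for these labels only. Normalized counts are the authors' counts divided by a factor per library, and they are comparable within a tissue only.

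The sequences in front of the 2 cyclooxygenase genes are shown because these genes make the same product but differed most plainly in how far their values varied among colon libraries. Ptgs1 is known as the cyclooxygenase that many cells make at rest, and Ptgs2 as the one that cytokines and growth signals induce. In the GENCODE annotation of GRCm38, Ptgs2 (ENSMUSG00000032487) spans chr1:150100031-150108227 and Ptgs1 (ENSMUSG00000047250) spans chr2:36230426-36252272, both on the plus strand. The RefSeq promoter table (GRCm38.p6) held 7 of the 10 genes, and the lines give the 250 bases before the start of each gene on its own strand. Capitals mark matches to TTGCGCAA, which is a palindrome that C/EBP factors can bind, or to the GC box GGGCGG.
Ptgs2 (chr1:150099781-150100030, plus strand): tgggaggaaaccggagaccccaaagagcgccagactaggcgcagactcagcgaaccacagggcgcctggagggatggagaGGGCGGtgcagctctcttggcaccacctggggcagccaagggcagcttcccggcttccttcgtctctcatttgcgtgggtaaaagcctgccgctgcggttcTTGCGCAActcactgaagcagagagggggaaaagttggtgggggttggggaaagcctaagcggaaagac
Ptgs1 (chr2:36230176-36230425, plus strand): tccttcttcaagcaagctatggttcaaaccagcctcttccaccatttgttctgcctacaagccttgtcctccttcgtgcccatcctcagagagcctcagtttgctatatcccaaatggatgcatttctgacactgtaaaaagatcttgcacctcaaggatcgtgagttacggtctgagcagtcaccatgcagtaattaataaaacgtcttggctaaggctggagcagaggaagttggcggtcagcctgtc
Both strands were searched for 5 motifs, and the same window of all 32851 promoters in the table gave the background. The letters TTGCGCAA stood from 69 to 62 bases before the Ptgs2 start, and 0.164% of all promoters held them. The GC box stood from 170 to 165 bases before the Ptgs2 start, and 32.7% of all promoters held it. The E-box CACGTG, held by 6.02% of all promoters, was in neither window. Neither was the CRE half-site CGTCA, held by 17.8%. The TATA box in its strict form TATAAA, held by 12.4%, was also in neither, and the Ptgs1 window held none of the 5. TTGCGCAA was in none of the other 5 gene windows, which were those of Ptges, Alox5, Hpgd, Ltb4r1 and Ptger4, and each of these held GGGCGG. Bases after the annotated starts, or further before them, were not searched, so a motif missing from a window may stand elsewhere in the promoter. These are matches of letters only, and factor binding was not measured.

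Of the prostaglandin genes in the colon, Ptgs2 varied most. It was listed at 1991, 961 and 247 normalized counts in the libraries of mice 1, 2 and 4, labelled UC, and at 735, 253 and 13225 in those of mice 7, 8 and 9, labelled control. Mouse 9 stood far above the rest, at 53.4 times the lowest library, and the labelled groups overlapped. The mean was 1067 ± 876 (SD, n = 3) under the UC label and 4738 ± 7354 (SD, n = 3) under the control label. The log2 fold change (log2FC) of UC over control labels was -2.14 (SE 1.47), which was 1.08 without mouse 9, so that 1 library set its direction.

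Ptgs1 stayed within a narrower band in the colon. It had 2400, 2266 and 1834 normalized counts under the UC label and 3067, 1567 and 3025 under the control label. The labelled groups overlapped, the highest library was 1.96 times the lowest, and the log2FC was -0.25 (SE 0.29).

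Ptges encodes the microsomal synthase that makes prostaglandin E2, often together with Ptgs2. In the colon it was listed at 816, 736 and 441 normalized counts under the UC label and at 862, 476 and 4187 under the control label. Mouse 9 was again the outlying library, the groups overlapped, and the log2FC was -1.47 (SE 0.79), or -0.04 without mouse 9. Ptgis, the prostacyclin synthase gene, had 859, 481 and 410 normalized counts under the UC label and 874, 469 and 429 under the control label. Here mouse 9 was among the lower libraries, mice 1 and 7 were high, and the log2FC was -0.03 (SE 0.42). Of the exon bases of Ptgis 156 are shared with a gene on the other strand, and the quantification set no strand.

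Hpgd encodes the dehydrogenase that inactivates prostaglandin E2 and is known to be abundant in colon epithelium. Its colon values were 17362, 11077 and 19353 normalized counts under the UC label and 11886, 18670 and 3846 under the control label. Mouse 9 was lowest, where Ptgs2 and Ptges were highest, and mice 4 and 8 were highest. The log2FC was 0.45 (SE 0.55), and 0.04 without mouse 9. The summed normalized counts of 6 absorptive colonocyte genes ran lowest in mouse 9, at 146972, and highest in mice 4 and 8, at 353261 and 348915. The smooth muscle sum was also lowest in mouse 9, at 128101, and so were the goblet cell, gut and red cell sums. Those of neutrophils, monocytes and macrophages, fibroblasts, endothelium and squamous epithelium were highest in mouse 9. In whole tissue, fewer cells of a type and less RNA per cell cannot be told apart, and the part of cell makeup in the Hpgd values was not tested.

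**Figure D1:**
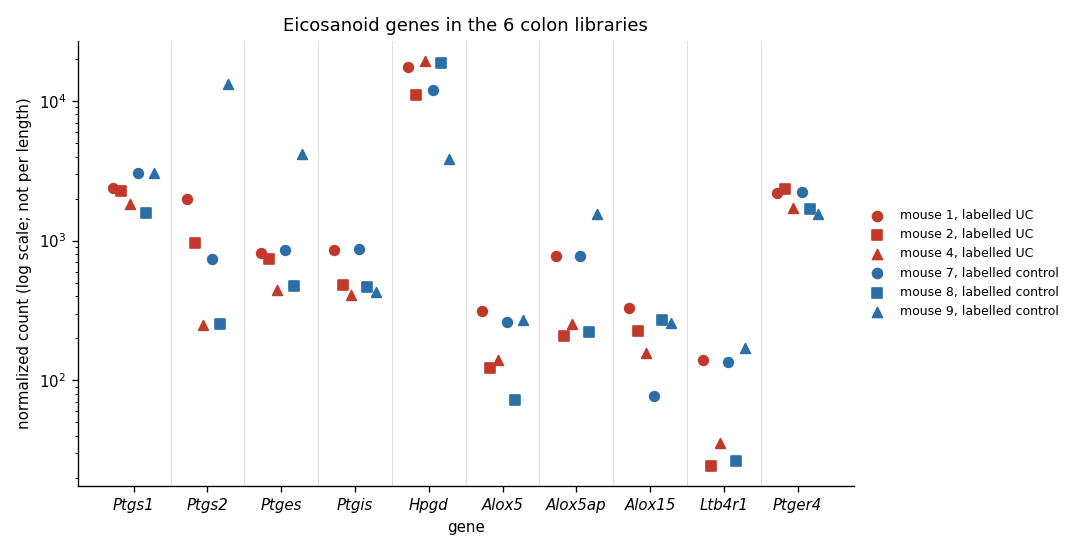
Normalized counts of the 10 genes (x axis) in the 6 colon libraries (y axis, log scale, not per length), with 1 point per library coloured by disease label and shaped by mouse. Ptgs2 and Ptges peak in mouse 9, at 13225 and 4187, where Hpgd is at its lowest of 3846.

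The leukotriene genes of the colon had the same 3 highest mice as Ptgs1 and Ptges. Alox5 encodes 5-lipoxygenase, which starts leukotriene synthesis, and was listed at 315, 123 and 140 normalized counts under the UC label and 263, 71.8 and 272 under the control label. Alox5ap encodes the membrane protein that hands arachidonic acid to 5-lipoxygenase, and was listed at 779, 206 and 252 under the UC label and 774, 222 and 1561 under the control label. Ltb4r1 encodes the high-affinity leukotriene B4 receptor of neutrophils and other white cells, and was listed at 140, 24.4 and 35.5 under the UC label and 135, 26.5 and 169 under the control label. For each of these 3 genes mice 1, 7 and 9 were the 3 highest libraries, so that each label held both high and low libraries. The log2FC between the labels was -0.08 (SE 0.62) for Alox5, -1.05 (SE 0.79) for Alox5ap and -0.74 (SE 0.89) for Ltb4r1. Without mouse 9 these were 0.17, -0.30 and -0.31, and without mouse 1 they were -0.63, -1.89 and -1.88.

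Mice 1, 7 and 9 were the 3 highest colon libraries for 5 of the 10 genes, namely Ptgs1, Ptges, Alox5, Alox5ap and Ltb4r1, beside 18.2% of the 22182 colon genes looked at. None of the 10 had mice 2, 4 and 8 highest, which held for 14.7% of all genes. The summed normalized counts of 8 neutrophil genes in the colon were 34371, 26336 and 66967 in mice 1, 7 and 9, and 7531, 16579 and 17813 in mice 2, 4 and 8. The eosinophil sum was 2952, 2147 and 2484 in mice 1, 7 and 9, and between 34.8 and 154 in the other libraries. Sums for some other cell types were likewise highest in mice 1, 7 and 9. For monocytes and macrophages they were 12361, 17143 and 24449 there, and from 6234 to 7638 in mice 2, 4 and 8. Tuft cell genes summed to 4198, 4231 and 2235 there, and to at most 1734 in the other mice, and fibroblast genes to 66417, 79957 and 99524 there, and to at most 53382 in the other mice. Squamous epithelium genes summed to 270, 321 and 346 there, and from 96.5 to 136 in the other mice. Sums for endothelium, mast cells, platelets, goblet cells, absorptive colonocytes, smooth muscle and red cells did not have mice 1, 7 and 9 highest. The part of any cell type in the values of the 5 genes was not tested.

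Alox15 encodes 12/15-lipoxygenase, which in mice is known from eosinophils and macrophages and makes lipid mediators linked to resolution of inflammation. In the colon it was listed at 332, 225 and 158 normalized counts under the UC label and 77.1, 271 and 259 under the control label. Mouse 7 was lowest, and its eosinophil sum was among the 3 highest. The log2FC was 0.22 (SE 0.55), or -0.17 without mouse 7. Ptger4 encodes the EP4 receptor for prostaglandin E2, which colon epithelium and immune cells carry. It varied least of the 10 colon genes, with 2200, 2339 and 1726 normalized counts under the UC label and 2221, 1675 and 1557 under the control label. The highest library was 1.50 times the lowest, and the log2FC was 0.19 (SE 0.22). Of the Ptger4 exon bases, 82 are shared with Ttc33 and 1015 with a pseudogene, both on the other strand, so its counts may be divided with them.

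Tested with edgeR over all 22238 colon genes that passed the count filter, none of the 10 genes was called, which took an adjusted p up to 0.05 together with more than 1 unit of log2FC in either direction, and each adjusted p was 0.9999. Of all genes tested 0.0045% was called. At an unadjusted p under 0.05 there were 0 of the 10, beside 1.41% of all genes. The labelled groups overlapped for each of the 10, and of all genes 5.66% had groups that did not. DESeq2 and limma-voom also called 0 of the 10. The median log2FC of the 10 was -0.16 and that of all tested genes was -0.01. With 3 mice per label and a biological coefficient of variation of 0.503, these results do not show that the genes were alike under both labels. That variation was estimated within the labelled groups, each of which held high and low libraries for S100a8. At the same thresholds the study, with DESeq2, reported many more genes between UC and control mice, in the colon and in blood. The reason for this difference was not tested.

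In blood, Alox5ap, Alox5 and Ltb4r1 were each highest in mouse 1. Alox5ap was listed at 15488, 5152 and 5642 normalized counts in mice 1, 2 and 4, labelled UC, and at 8790, 4917 and 7303 in mice 7, 8 and 9, labelled control. Alox5 was at 2859, 783 and 642 under the UC label and at 921, 616 and 1292 under the control label. Ltb4r1 was at 1229, 160 and 140 under the UC label and at 345, 163 and 481 under the control label. As in the colon, mice 1, 7 and 9 were the 3 highest for these genes, and the labelled groups overlapped. Their log2FC were 0.32 (SE 0.45), 0.59 (SE 0.57) and 0.62 (SE 0.82), and without mouse 1 they were -0.37, -0.40 and -1.13, so that the direction rested on that library. The summed neutrophil genes in blood were 482665, 156525 and 359370 in mice 1, 7 and 9, and ran from 40626 to 55683 in mice 2, 4 and 8. The part of neutrophil number in these values was not tested.

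Ptgs1 in blood was listed at 3733, 2334 and 1472 normalized counts under the UC label and at 2526, 2158 and 2932 under the control label. The labelled groups overlapped and the log2FC was -0.02 (SE 0.34). Ptgs1 is the cyclooxygenase of platelets, and the summed platelet genes ran from 147147 to 189823 normalized counts over the 6 libraries. With Ptgs1, mice 1, 7 and 9 were the 3 highest blood libraries for 4 of the 9 genes tested, beside 11.8% of the 16727 blood genes looked at. None had mice 2, 4 and 8 highest, which held for 7.23% of all genes.

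Ptgs2 was low in blood, at 20.0, 37.6 and 22.1 normalized counts under the UC label and 32.9, 16.1 and 48.8 under the control label. Mouse 9 was highest in blood as in the colon, but at 3.03 times the lowest library rather than the 53.4 times of the colon, and the log2FC was -0.31 (SE 0.58). Ptges was lower still, at 31.6, 21.1 and 9.0 under the UC label and 6.89, 0 and 9.93 under the control label, of which the highest library held 30 counts. A count of 0 in mouse 8 allows up to 3 counts there, and the log2FC of 1.81 (SE 1.06) rests on these small counts. Ptgis had 92 counts in the blood of mouse 1, or 96.9 normalized counts, and 0 in the other 5 libraries. It did not pass the count filter in blood. The summed endothelial genes were also highest in mouse 1, at 56891 normalized counts against 14454 to 24750 in the other 5 blood libraries, and their part in the Ptgis counts was not tested.

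Hpgd in blood was listed at 130, 217 and 241 normalized counts under the UC label and 220, 294 and 248 under the control label, with mouse 1 lowest and mouse 8 highest. Ptger4 was at 550, 363 and 344 under the UC label and 366, 293 and 353 under the control label. The groups overlapped for both, with a log2FC of -0.38 (SE 0.30) for Hpgd and 0.31 (SE 0.26) for Ptger4.

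Alox15 was the 1 gene of the 10 whose labelled groups did not overlap in blood. It was listed at 633, 271 and 403 normalized counts under the UC label and at 110, 226 and 50.5 under the control label. Every library labelled UC was above every library labelled control, with means of 436 ± 183 (SD, n = 3) and 129 ± 89.4 (SD, n = 3), and of the blood genes looked at 6.5% had labelled groups that did not overlap, 3.08% in this direction. The log2FC was 1.75 (SE 0.56). By edgeR over all genes the unadjusted p was 0.0137 and the adjusted p was 0.9998, so the difference did not pass the threshold. Over the other settings the log2FC ran from 1.65 to 2.01 with an adjusted p from 0.986 to 1, and leaving out each mouse in turn gave 1.37 to 2.43. In mouse 1, which had the highest Alox15, the summed eosinophil genes were lowest of the 6 blood libraries, at 501, and the summed monocyte and macrophage genes were highest, at 15254. Mouse 7 had the next highest monocyte and macrophage sum, at 12918, with Alox15 at 110. Sums for neutrophils, endothelium, mast cells, platelets and red cells were also highest in mouse 1. The part of any cell type in the Alox15 values was not tested.

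**Figure D2:**
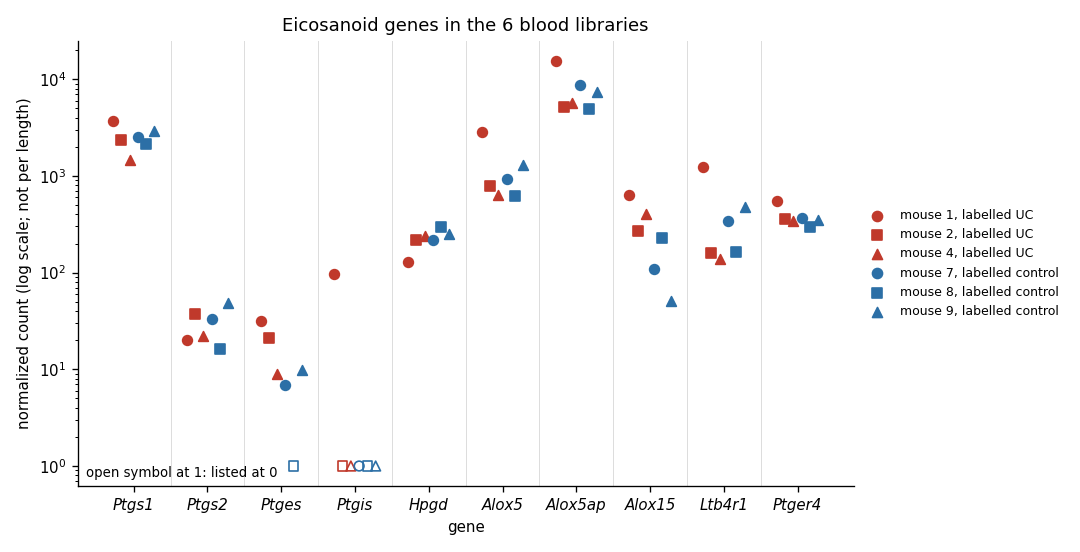
Normalized counts of the 10 genes (x axis) in the 6 blood libraries (y axis, log scale, not per length), with 1 point per library coloured by disease label and open symbols for values listed at 0. Alox5ap, Alox5 and Ltb4r1 are highest in mouse 1, and for Alox15 the 3 libraries labelled UC, from 271 to 633, lie above the 3 labelled control.

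In the blood comparison 0 of the 9 genes tested were called, as was 0% of the 16759 genes, by edgeR. At an unadjusted p under 0.05 there was 1 of the 9, Alox15, beside 1.44% of all genes, and DESeq2 and limma-voom also called 0 of the 9. Scaling by library size alone put the median log2FC over the blood genes tested at -0.27 instead of 0.04, and under it the log2FC of Alox5ap, Ltb4r1 and Ptger4 were below 0.

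**Figure D3:**
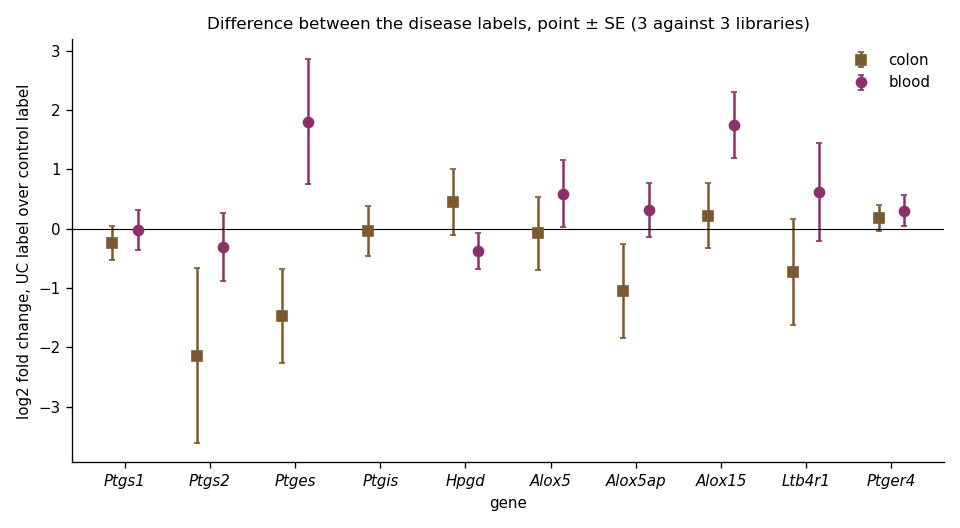
The log2FC of libraries labelled UC over those labelled control (y axis) for each gene (x axis) in colon and blood, as the edgeR estimate with its SE, from 3 against 3 libraries. In the colon Ptgs2 has the widest error, -2.14 with an SE of 1.47, and in blood Alox15 lies at 1.75 with an SE of 0.56; Ptgis was not tested in blood.

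An interaction term fitted to the 12 libraries asked whether the label difference was itself unlike in colon and blood. By edgeR 0 of the 10 genes were called, beside 0.0043% of 23258 genes. At an unadjusted p under 0.05 there were 2, Ptges at -3.25 (adjusted p = 0.9999) and Ptgis at -9.22, beside 3.41% of all genes. The Ptgis value rests on the blood library of mouse 1, beside blood counts of 0 in the other mice, and depends on the prior count. Without mouse 1 the Ptgis value was -0.45. DESeq2 called Ptgis alone of the 10, and limma-voom called none.

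The 10 genes were then compared between the tissues, whatever their disease label. Counts per 1000000 counts (CPM) from the fit of all 12 libraries were compared between colon and blood, and 9 of the 10 genes were called, beside 58.5% of the 23258 genes tested by edgeR. Of all genes 37.7% were called higher in the colon and 20.8% higher in blood, so that a tissue difference in itself is common. Under scaling by library size alone the calls over all genes were 17887 higher in colon and 1757 higher in blood, against 8759 and 4845 under TMM, and the median log2FC of all genes moved from 0.46 to 2.57. Tissue and depletion kit cannot be told apart in this design.

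The genes higher in the colon belonged to the prostaglandin branch. Ptgs2 ran from 1.35 to 73.3 CPM over the 6 colon libraries and from 0.287 to 0.886 CPM in the 6 blood libraries, without overlap, and the log2FC was 4.54 (SE 0.95, edgeR adjusted p = 0.00130). Without mouse 9 it was 3.13, and by limma-voom 3.52 with an adjusted p of 0.0617, which did not pass. Ptges ran from 2.41 to 23.2 CPM in the colon and from 0 to 0.578 CPM in blood, with a log2FC of 4.93 (SE 0.71). Hpgd ran from 21.3 to 105.5 CPM in the colon and from 2.37 to 5.25 CPM in blood, with a log2FC of 4.22 (SE 0.37). These 3 genes kept their direction under each scaling. Ptgis ran from 2.24 to 4.98 CPM in the colon, and blood reached 1.77 CPM in mouse 1 with 0 counts elsewhere. Its mean CPM was 11.1 times higher in the colon, while its fitted log2FC, 7.04 and 11.42 without mouse 1, depends on the prior count.

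The genes called higher in blood were Alox5ap, Alox5 and Ltb4r1, of leukotriene synthesis and response, with Ptgs1 and Alox15. Alox5ap ran from 1.13 to 8.65 CPM in the colon and from 87.7 to 283 CPM in blood, with a log2FC of -5.44 (SE 0.60). Alox5 ran from 0.402 to 1.75 CPM in the colon and from 11.0 to 52.3 CPM in blood, with a log2FC of -4.26 (SE 0.53). Ltb4r1 ran from 0.133 to 0.937 CPM in the colon and from 2.54 to 22.5 CPM in blood, with a log2FC of -3.97 (SE 0.76). The tissues did not overlap for any of these 3 genes, and each stayed higher in blood under library size scaling, at -3.28, -2.13 and -1.83.

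Ptgs1 and Alox15 were closer. Ptgs1 ran from 8.77 to 17.5 CPM in the colon and from 26.8 to 68.3 CPM in blood, with a log2FC of -1.81 (SE 0.25), but it was 0.32 and not called under library size scaling. Alox15 overlapped between tissues, from 0.440 to 1.84 CPM in the colon and from 0.916 to 11.6 CPM in blood, with a log2FC of -1.82 (SE 0.43), or 0.45 and not called under library size scaling. Relative to the median of all genes, these values were -2.27 and -2.28 under TMM and -2.25 and -2.12 under library size. Ptger4 also overlapped, from 8.63 to 12.8 CPM in the colon and 5.23 to 10.1 CPM in blood. Its log2FC of 0.66 (SE 0.18, edgeR adjusted p = 0.00655) was under the fold threshold, and it was 0.20 above the median of all genes.

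**Figure D4:**
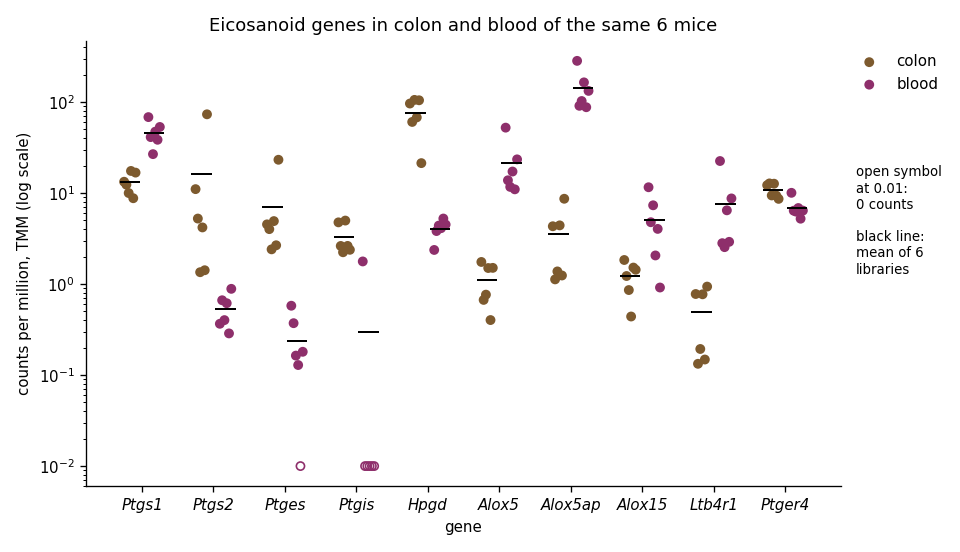
CPM of the 10 genes (x axis) in the 6 colon and 6 blood libraries (y axis, log scale, TMM scaled), with 1 point per library and a black line at the mean. Ptgs2, Ptges and Hpgd lie higher in every colon library, Alox5, Alox5ap and Ltb4r1 lie higher in every blood library, and Alox15 and Ptger4 overlap.

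Per kilobase (kb) of exon, the order of levels also differed between tissues. In the colon Hpgd was first, with 2285 to 11499 normalized counts per kb, and Ptgs2 (54.0 to 2887), Ptgs1 (403 to 790), Alox5ap (145 to 1099) and Ptges (112 to 1065) followed by their means with ranges that overlapped. Ptger4 and Ptgis came next, and Alox15, Ltb4r1 and Alox5 were last, with a highest library of 135, 121 and 76.8. In blood Alox5ap was first, with 3462 to 10907 normalized counts per kb, and no other gene passed 961.1. Ptgs1 (379 to 961.1), Ltb4r1 (100.4 to 882) and Alox5 (150.0 to 696) came next with overlapping ranges, then Hpgd, Alox15 and Ptger4. Ptgs2 stayed below 10.7 per kb in every blood library, and Ptges below 8.04.

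Ratios of 2 genes within a library do not depend on its scaling. The ratio of Ptgs2 to Ptgs1 per kb was 0.703, 0.360 and 0.114 in the colon of mice 1, 2 and 4 and 0.203, 0.137 and 3.71 in mice 7, 8 and 9. Mouse 9 was the only colon library in which Ptgs2 exceeded Ptgs1 per kb. In blood the ratio ran from 0.00455 to 0.0141. It was higher in the colon in 6 of 6 mice, by 39.6-fold on the geometric mean. The two-sided exact sign-flip permutation p was 0.0313, which is the smallest that 6 pairs allow, and the adjusted p was 0.0469 over 3 ratios. Ptgs2 CPM were higher in every colon library and Ptgs1 CPM in every blood library. The outcome of this test follows from those ranges and adds no separate support.

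The ratio of Hpgd to the sum of Ptgs1 and Ptgs2, which sets the breakdown enzyme against the cyclooxygenases, ran from 7.43 to 24.2 per kb in the colon of 5 mice and was 0.623 in mouse 9. In blood it ran from 0.0797 to 0.374. It was 37.2-fold higher in the colon on the geometric mean, in 6 of 6 mice (exact permutation p = 0.0313, adjusted p = 0.0469). The ratio of Alox5ap to Alox5 lay between 4.86 and 16.6 in the colon and between 15.7 and 27.6 in blood. It was higher in blood in 5 of 6 mice, mouse 9 being the exception, and the difference did not pass (exact permutation p = 0.0625, adjusted p = 0.0625). Between the disease labels 6 such tests gave exact permutation p-values of at least 0.1 and adjusted p-values of at least 0.6. A p of 0.1 is the smallest that 3 against 3 allow, so none of these tests could reach 0.05. The lowest, at 0.1, was for Alox5ap to Alox5 in the colon. There the ratio ran from 4.86 to 7.14 under the UC label and from 8.51 to 16.6 under the control label, without overlap.

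**Figure D5:**
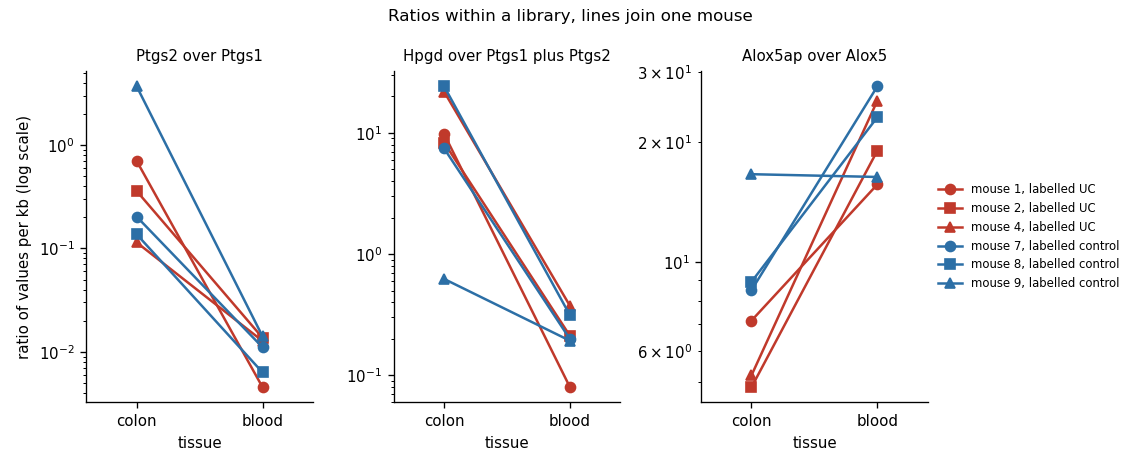
Ratios of normalized counts per kb within a library (y axis, log scale) in colon and blood (x axis), with a line for each of the 6 mice coloured by disease label. The ratio of Ptgs2 to Ptgs1 is higher in the colon in 6 of 6 mice and reaches 3.71 in mouse 9, where Hpgd to Ptgs1 plus Ptgs2 is 0.623.

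The genes whose log2 CPM most resembled that of a member over the 6 libraries of a tissue are given as a description, since 6 libraries of one tissue make high correlations common. In the colon, among 11190 or 11191 genes, Ptgs2 was closest to Slc35f6, Trabd and Psmd13 (Pearson r from 0.990 to 0.995), and Hpgd to Harbi1, Ist1 and Lurap1l (r from 0.990 to 0.993). Alox5ap was closest to Dio2, Krt90 and Chrd (r of 0.999 for each), with 341 genes at an r of at least 0.95. Alox15 stood more alone, with 9 genes at that level and Lrrc75a, Ehmt2 and Slc19a1 closest (r from 0.980 to 0.986). In blood, among 5704 or 5705 genes, Alox5ap was closest to Card9, Flot1 and Phf1 (r from 0.997 to 0.998) and Ltb4r1 to Tmem127, Cbl and Hip1 (r from 0.998 to 0.999), with 271 and 338 genes at an r of at least 0.95.

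Other genes of the pathway were taken from lists of 48 genes by role. Between the labels 0 of 41 tested were called in the colon and 0 of 31 in blood by edgeR, beside 0.0045% and 0% of all genes. In the colon 1 had an unadjusted p under 0.05, beside 1.41% of all genes. This was Pla2g2a at -5.06, which encodes a secreted phospholipase that C57BL/6 mice carry in a naturally disrupted form and which was listed at 3898 normalized counts in mouse 9 and from 13.9 to 470.4 in the others. In blood there were 0, beside 1.44% of all genes. Between tissues 33 of 41 were called, beside 58.5% of all genes. Of these 20 were higher in the colon and 13 higher in blood, beside 37.7% and 20.8% of all genes, and 5 of the 13 turned to the colon under library size scaling while 0 of the 20 turned to blood.

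Of 10 phospholipase genes 6 were called higher in the colon and 2 higher in blood, beside the 37.7% and 20.8% of all genes. Pla2g4a, the cytosolic enzyme that frees arachidonic acid, had a log2FC of 1.03, the secreted Pla2g10 5.53, and Pla2g12a -3.12. Under library size scaling Pla2g12a was at -0.99 and not called. Pla2g5 and Pla2g2a had 0 counts in every blood library. Against a floor of 3 counts per library Pla2g5 was at least 110.3-fold higher in the colon. For Pla2g2a the bound was 75.7-fold, but it was 12.6-fold without mouse 9, which held 21.6 CPM against 0.0776 to 2.68 CPM in the other colon libraries.

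Of 7 prostanoid synthase genes tested 4 were higher in the colon, among them Cbr1 (1.82) and Hpgds (3.77), the prostaglandin D synthase of immune cells, and 1 was higher in blood, the thromboxane synthase Tbxas1 (-4.79) of platelets and macrophages. Ptges3 (0.77) was under the fold threshold. Of 5 transport and breakdown genes 3 were higher in the colon and 1 in blood. For both lists the shares of all genes were 37.7% higher in the colon and 20.8% higher in blood. Slco2a1, which carries prostaglandins into cells for breakdown by the Hpgd product, had a log2FC of 9.47 between 65.0 ± 27.4 CPM (SD, n = 6) in the colon and 0.110 ± 0.119 in blood. The exporter Abcc4 was at -1.78 but at 0.36 under library size scaling, and Ptgr2 at 0.86 was under the fold threshold. Akr1c18 had 0 counts in blood and was at least 10.9-fold higher in the colon, or at least 3.50-fold without mouse 1, which held 2.66 CPM against 0.0475 to 0.409 CPM in the other colon libraries.

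Of 8 lipoxygenase and leukotriene enzyme genes tested 4 were called in each direction, beside 37.7% of all genes higher in the colon and 20.8% higher in blood. Alox12, the lipoxygenase of platelets, was higher in blood (-8.66), as was Cyp4f18 (-5.17), which inactivates leukotriene B4 in neutrophils. Lta4h (1.11), which makes leukotriene B4, Mgst2 (2.37) and the dipeptidase Dpep1 (10.21) were higher in the colon. Among 7 prostanoid receptors tested 3 were called in each direction, beside the same shares of all genes. Ptger3 (3.01) and Ptger1 (4.80) were higher in the colon, Ptgfr was at least 23.4-fold higher there against 0 counts in blood, and Ptger2 (-1.54) and the prostacyclin receptor Ptgir (-1.97) were higher in blood but at 0.57 and 0.20 under library size scaling. Of 4 leukotriene and lipoxin receptors tested Cysltr2 (-5.54) and Fpr2 (-4.30) were higher in blood, and Cysltr1 (0.52) was not called. Under library size scaling Fpr2 was at -2.19 and not called.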

How the data were processed

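RNA of 12 libraries, 6 of colon and 6 of blood, was quantified by the authors. They mapped reads to GRCm38 with STAR, ran StringTie 1.3.4c with default options, which set no strand, and deposited whole-number counts per gene derived from transcript coverage. The authors also deposited 1 table per tissue of normalized counts, a signal in which each count was divided by 1 factor per library. The number of per-sample columns not used was 0. Groups and mouse numbers came from the labels.

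For the tests edgeR 4.0.16 was run in R 4.3.3 (TMM, filterByExpr, glmQLFit and glmQLFTest, Benjamini-Hochberg over all genes tested), each tissue alone for the labels and all 12 libraries for tissue and interaction. A gene was called at an adjusted p up to 0.05 with a log2FC beyond 1 in either direction (no fold limit for the interaction). SE values are log2FC over the root of F. The code was tested on simulated data. The alternatives were RLE and library size scaling, scaling without the 50 most counted genes of each tissue, other count filters, the genes of the normalized tables only, 1 fit of all libraries, DESeq2 1.42.0, limma-voom (limma 3.58.1), leaving out each mouse and the mouse as a block. The mouse number pairs the tissues, since both came from the same mice. Deviations from the group means correlated between the tissues of a mouse at r = 0.141, 0.0492, 0.0830, 0.0381, 0.0524 and -0.0151 for mice 1, 2, 4, 7, 8 and 9 over 23258 genes.

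The members and lists were chosen with earlier results of these data known. All 10 members are named. In each pathway list the genes named are those called between labels, the 2 with the largest tissue log2FC among those called and the 2 with the highest mean in each tissue. The 3 genes most alike were taken among those with a mean of at least 5 CPM, on log2 CPM with a prior count of 2, with symbols that start with Gm or end in Rik left out. Pla2g2a is named between labels after its value was seen. Exon lengths and positions are from GENCODE vM21 (GRCm38). Counts of 0 allow up to 3 counts, for counting error only. The bounds without the highest colon library were added after the data were seen.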

Additional observations from a re-analysis of the deposited data

How the results depend on the processing

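The count of called genes between labels stayed 0 of the members in colon and blood, and the count between tissues ran from 8 to 9, over the settings tried. In the interaction DESeq2 called 1 gene, Ptgis (log2FC -22.20, adjusted p = 2.56e-08), against 0 by edgeR; its blood counts are 0 in 5 of 6 libraries. Between tissues the replicate block, which pairs the tissues of a mouse, called 9 genes and changed no member's call, and in the interaction it called 0. Under library size scaling Ptgs1 and Alox15 turned to 0.32 and 0.45 between tissues and Ptger4 was called at 2.78; in the blood Alox5ap, Ltb4r1 and Ptger4 turned to -0.14, -0.0086 and -0.070, and in the interaction Ptgs1 and Ptger4 turned to 0.19 and 0.29. Under limma-voom Ltb4r1 in blood was -0.023 and Ptgs2 between tissues was 3.52 (adjusted p = 0.0617). For these the cause was not tested.

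Leaving out each mouse in turn turned the direction of several label differences, none of them called. In the colon the log2FC ran from -2.96 to 1.08 for Ptgs2, -0.42 to 0.37 for Ptgis, -0.63 to 0.17 for Alox5 and -0.17 to 0.50 for Alox15. In blood it ran from -0.41 to 0.25 for Ptgs1, -0.63 to 0.10 for Ptgs2, -0.40 to 0.94 for Alox5, -0.37 to 0.59 for Alox5ap and -1.13 to 1.07 for Ltb4r1. In the interaction it ran from -0.40 to 0.086 for Ptgs1, -2.80 to 1.01 for Ptgs2 and -0.33 to 0.078 for Ptger4. The members called between tissues numbered 9 without any 1 mouse. Over all genes DESeq2 called 6 in the colon and 6 in blood, against 1 and 0 by edgeR, and 19 in the interaction against 1.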
